A study of Mus musculus with 14 samples.

Results

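Brown adipose tissue of mice with a deletion of Lrpprc aimed at brown fat cells was compared with that of control mice, both groups housed at 30 °C. The comparison takes the 6 animals kept at 30 °C, of the 14 animals in the series, and covers the 13079 genes with enough signal, of which 13 are encoded in mitochondrial DNA. The knockout group was 3 mice of genotype LrpprcFF Ucp1-Cre and the control group was 3 mice of genotype LrpprcFF, all of strain C57BL/6 and 8 weeks of age. The loxP-flanked alleles are thus carried by both groups, and the Cre transgene by the knockouts alone. Cre was driven by the Ucp1 promoter, so the deletion was aimed at cells that express Ucp1 and not at the vessels, nerves and immune cells of the tissue. In which cells it took place was not tested. Brown adipocytes are given as the cell type in the labels, but the protocol homogenized tissue to extract RNA, so the values are those of whole tissue. The other 8 animals, 4 of each genotype, were housed at 22 °C and serve here for the shared estimate of spread and for the test of whether the knockout effect differed between temperatures. Nothing in the labels pairs animals across the groups or says how litters were assigned.

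LRPPRC is a nuclear-encoded protein that works inside mitochondria, where it binds the messages made from mitochondrial DNA together with its partner SLIRP, keeps them stable and helps them to be polyadenylated and translated. Those messages encode core subunits of the respiratory chain, while most subunits and all assembly factors come from nuclear genes, so the loss of LRPPRC sets the supply from one genome against that from the other. Brown fat is built around this chain: it burns fatty acids and glucose, and UCP1 lets protons back across the inner membrane so that the energy is released as heat. At thermoneutrality mice have little need of that heat, sympathetic drive to the tissue is low, and brown adipocytes shrink their mitochondrial programme and store more lipid.

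Values are given as scaled FPKM, which are fragments of a gene corrected for its length and for the depth of the library, after each library was set to the same level over nuclear genes, always for knockout mice 1, 2 and 3 and then control mice 1, 2 and 3. A gene is said to have risen or fallen, or to have passed, where limma's test across all 13079 genes gave a Benjamini-Hochberg adjusted p under 0.05. Changes are log2 fold changes of scaled FPKM + 1, knockout over control, with their standard error (SE), and this scale understates the change of genes at low levels. Nothing in the labels says more of the animals than that each is a separate sample. The p-values of limma set each change against the spread between samples within groups, estimated over all 14 animals.

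Depth recovered from the steps between low values was 17780000 to 21280000 fragments per library at 30 °C. Lrpprc itself (ENSMUSG00000024120) stood at 7.40, 4.97 and 8.56 scaled FPKM in the knockout mice and at 30.3, 31.9 and 32.7 in the controls, and the groups did not overlap. Knockout tissue thus kept 22.0% of the control mean, a fall of 2.06 ± 0.25 on the log2 scale (adjusted p = 0.000377, limma). The exact two-sided permutation test on the 6 animals gave p = 0.1, the smallest value that 3 against 3 animals allow. In tissue as a whole, fewer cells of a type and less RNA per cell cannot be told apart, here and in every result that follows. Reads from mitochondrial DNA made up 16.03% to 19.1% of mapped fragments in controls and 1.12% to 3.08% in knockouts. All 13 mitochondrially encoded messages fell, with a median log2 change of -3.18. The adipocyte genes Ucp1, Cidea, Adipoq, Plin1 and Fabp4 were high in all 6 animals, and their lowest value was 269, that of Ucp1 in knockout mouse 1. Not every listed marker of brown adipocytes was high, and Dio2 was low in control mouse 1, as given below. Elovl3 was near its floor at 0.62, 0.375 and 0.26 and 0.0746, 1.42 and 0.347, against a mean of 36.2 in controls at 22 °C. Skeletal muscle markers were uneven without regard to genotype: their summed level was 10810, 2605 and 8343 in knockouts and 17108, 5888 and 93.3 in controls, with control mouse 3 far below the rest.

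Of the 13079 genes, 1845 passed (14.1%), 1154 of them higher in the knockouts (8.82% of all genes tested) and 691 lower (5.28%). At least 2-fold changes (1 on the log2 scale) were seen in 431 of the genes that rose and 124 of those that fell. Genes of macrophages, extracellular matrix, lysosomes, stress responses and immediate early transcription were among those that rose. Nuclear-encoded respiratory chain subunits, fatty acid oxidation enzymes and some lipid-handling and clock genes were among those that fell. The 3 knockout values did not overlap the 3 control values in 4813 genes (36.8%), and in 1798 of the 1845 that passed. The number of calls depended on single animals: 815 genes passed without knockout mouse 1, 895 without knockout mouse 3, 1012 without control mouse 1, 909 without control mouse 2 and 1282 without control mouse 3, whereas 2113 passed without knockout mouse 2. The balance of rises and falls also depended on the scaling, and why was not tested. Unscaled FPKM are shares of all mapped fragments, mitochondrial ones included. Unscaled values moved the median of all genes from 0.06 to 0.31 and put 93.6% of the calls in the higher group, against 62.5% in the scaled values, 84.5% with equal nuclear totals and 48.7% with quantile normalization. Statements below hold for changes relative to the typical nuclear gene.

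**Figure D1:**
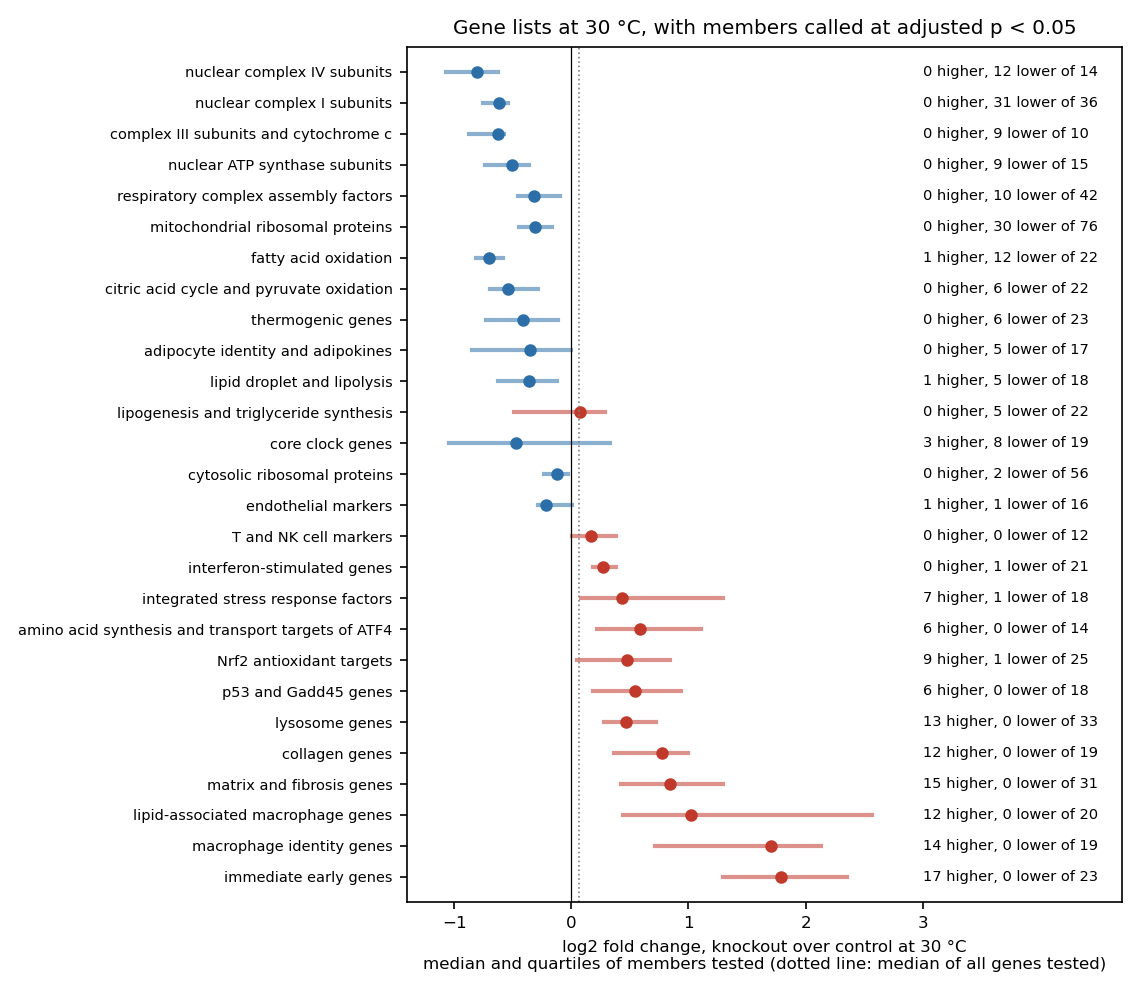
Median (point) and quartiles (bar) of the log2 fold change, knockout over control at 30 °C, over the tested members of 27 gene lists, with the number of members that passed in each direction; red marks a positive and blue a negative median, and the dotted line is the median of all genes. Respiratory chain and fatty acid oxidation lists lie to the left with no or 1 member higher, and macrophage, matrix and immediate early lists lie to the right with no member lower.

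The largest changes were taken from nuclear genes that passed, had at least 5 FPKM in a group and had groups that did not overlap. The 15 with the largest rises were 7 genes typical of activated macrophages, 5 genes of cellular stress, 2 immediate early genes and the ion channel gene Hcn2. Gpnmb, a glycoprotein of macrophage lysosomes, stood at 279.6, 42.5 and 45.2 scaled FPKM in knockouts and 1.92, 2.77 and 15.8 in controls, a log2 change of 3.86 ± 0.71 (adjusted p = 0.00463, limma). Knockout mouse 1 was far above the other knockouts and control mouse 3 above the other controls. That the groups did not overlap was required by the rule that chose these genes. Knockout mouse 1 was also the highest knockout and control mouse 3 the highest control for Mmp12 (macrophage elastase, 3.56 ± 0.68), Lgals3 (galectin-3, 3.42 ± 0.61), Trem2 (a lipid receptor of macrophages, 3.01 ± 0.43), Atp6v0d2 (a proton pump subunit, 2.92 ± 0.49), Ctss (cathepsin S, 2.87 ± 0.68, adjusted p 0.0657 to 0.0715 without knockout mouse 1 or control mouse 1 or 2) and Adam8 (a metalloprotease, 2.81 ± 0.44). Hcn2, a hyperpolarization-activated cation channel, followed another order: 16.2, 29.2 and 56.7 against 2.09, 2.55 and 2.68, with knockout mouse 3 the highest and the controls close together. Its change was 3.18 ± 0.40 (adjusted p = 0.000482, limma), and it passed with any 1 animal left out. At 22 °C Hcn2 averaged 2.37 ± 1.56 (SD, n = 4) in knockouts and 1.01 ± 0.30 in controls.

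The 15 largest falls had no such common type. Keratins 19, 18 and 8, which build the intermediate filaments of simple epithelia, headed them with changes of -2.47 ± 0.49, -2.32 ± 0.36 and -2.31 ± 0.28. Krt8 was at 1.003, 0.502 and 2.50 scaled FPKM in knockouts and 10.8, 14.2 and 6.15 in controls, and the epithelial adhesion gene Epcam at 0.227, 0.127 and 0.499 and 2.84, 2.74 and 1.72. Control mice 1 and 2 were the highest for all 4 genes and control mouse 3 lay between them and the knockouts. Of the 12 epithelial markers listed, 6 were tested and 4 fell, and the summed level of all listed was 5.52, 3.0 and 14.2 in knockouts and 59.3, 72.1 and 21.1 in controls. In the 8 animals at 22 °C these genes were at or near 0, with a mean of 0.008 for Krt8 in controls there. A gene was tested only where 3 or more of the 14 mice had a deposited FPKM of 1 or more. Epcam, below 1 in every knockout, thus entered the test through control mice 1, 2 and 3 alone. A fall in a gene admitted in this way is largely fixed in advance by the filter. The count of 4 among the 6 tested therefore cannot show how epithelial markers moved as a set. The part of epithelial cells in the sampled tissue was not tested.

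Other large falls touched lipid and mitochondrial genes. Clstn3, whose adipocyte form acts at lipid droplets, fell from 45.8, 79.2 and 83.98 in controls to 12.7, 12.9 and 15.97 in knockouts (-2.21 ± 0.23, adjusted p = 0.000156, limma), and the 3 knockouts were close together. Apoc1, a lipoprotein component, was at 74.4, 58.9 and 35.8 against 235, 286 and 272. Fdft1, squalene synthase, was at 19.3, 24.98 and 12.3 against 55.8, 57.1 and 58.7, with the controls within a few units of each other. Acat3 fell by 2.13 ± 0.24 and Slc25a48, a carrier of the mitochondrial inner membrane, by 1.995 ± 0.31. Acat3 has a close copy in Acat2, and how reads shared by the 2 genes were counted is not given in the sources used here. Ifi27l2a, an interferon-inducible gene, stood at 373, 189 and 269.9 against 959.7, 984 and 1488. It alone of 21 tested interferon-stimulated genes passed, and the median of that list was 0.27. Also among the 15 were Mmd2 (-2.19 ± 0.45), the oligosaccharyltransferase subunit gene Tusc3 (-1.84 ± 0.26), the matrix protein gene Ltbp2 (-1.76 ± 0.22), the mitochondrial phospholipase gene Pld6 (-1.71 ± 0.20) and the apelin receptor gene Aplnr (-1.67 ± 0.44). Aplnr lost its call with most single animals left out (adjusted p 0.0523 to 0.112 without knockout mouse 1 or 3 or control mouse 1, 2 or 3).

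**Figure D2:**
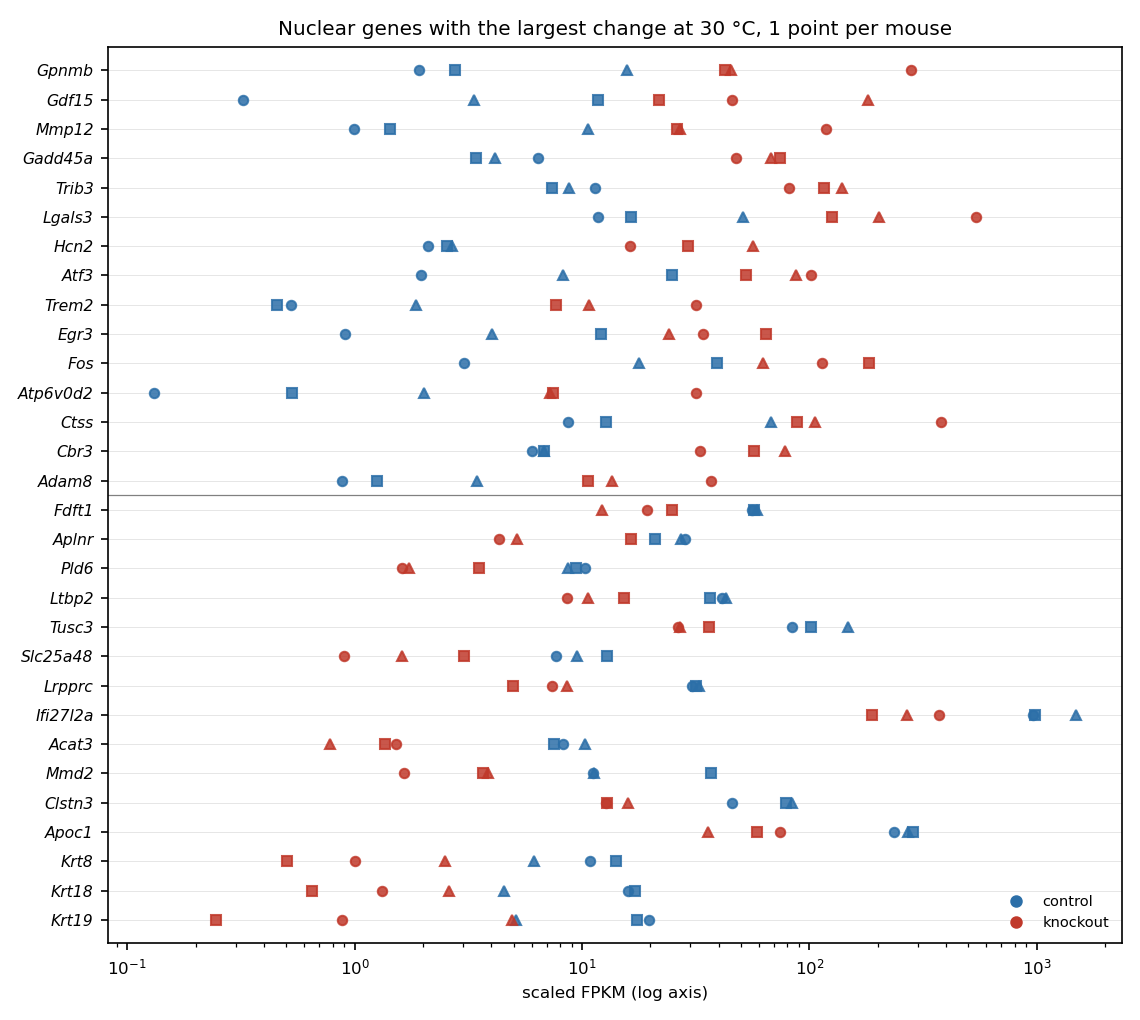
Scaled FPKM (log axis) of the 15 nuclear genes with the largest rises (above the line) and the 15 with the largest falls (below it), with 1 point per mouse; circle, square and triangle are mice 1, 2 and 3 of each group, blue for controls and red for knockouts. Groups do not overlap in any of the 30 genes, as the rule that chose them required, and knockout mouse 1 is the rightmost point for the macrophage genes such as Gpnmb and Lgals3.

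The integrated stress response couples trouble in mitochondria, the endoplasmic reticulum or amino acid supply to the transcription factor ATF4 and its relatives, which turn on genes of amino acid uptake, amino acid synthesis and stress signalling. Of 18 factors of this response tested, 7 rose and 1 fell, with a median of 0.43. Trib3, a pseudokinase gene and a classical ATF4 and CHOP target, stood at 81.04, 116 and 139 in knockouts against 11.4, 7.37 and 8.75 in controls. The change was 3.46 ± 0.43 (adjusted p = 0.000448, limma). That the groups did not overlap was required by the rule that put Trib3 among the largest rises. Atf5, the factor tied to the mitochondrial unfolded protein response, was at 179, 294 and 276 against 55.2, 76.7 and 49.02, a rise of 2.02 ± 0.29 with no overlap. Atf3 rose by 3.14 ± 0.71, from a spread of 1.97, 24.9 and 8.27 in controls to 102, 52.5 and 87.1, and lost its call (adjusted p = 0.0505 without knockout mouse 1). Ddit3, which encodes CHOP, was at 93.4, 124 and 136 against 45.4, 53.4 and 49.6. Its rise of 1.22 ± 0.30 did not pass in 2 of the fits that left out 1 animal (adjusted p 0.0632 to 0.077 without knockout mouse 3 or control mouse 1). The list had 4 rises without knockout mouse 3 or control mouse 1. The message of Atf4 itself, which is controlled largely at translation, was at 137, 103 and 139 against 53.7, 101 and 75.4. These groups did not overlap, since control mouse 2 lay just below knockout mouse 2, and the change of 0.74 ± 0.28 did not pass (adjusted p = 0.0946, limma). Eif4ebp1 was the member that fell, by 0.37 ± 0.11, and it passed in none of the fits that left out 1 animal (adjusted p 0.0648 to 0.141 without knockout mouse 1, 2 or 3 or control mouse 1, 2 or 3).

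The enzymes and carriers that ATF4 is known to drive rose in 6 of 14 tested members (median 0.59), and none fell. Aldh18a1, the first enzyme of proline synthesis from glutamate, was at 6.41, 8.61 and 15.96 in knockouts against 1.61, 1.65 and 2.02 in controls, a change of 1.95 ± 0.24. Pycr1, the last enzyme of that route, was at 3.03, 2.96 and 3.76 against 0.631, 0.863 and 0.987. Both steps of mitochondrial proline synthesis were thus higher in every knockout than in any control. Carrier genes that rose included Slc7a5 (1.73 ± 0.38), which imports large neutral amino acids, Slc7a1 (1.14 ± 0.26, adjusted p = 0.057 without knockout mouse 3) for cationic ones and Slc38a2 (0.82 ± 0.18) for small neutral ones. Slc3a2, the heavy chain that partners SLC7A5, rose by 1.002 ± 0.31 and depended on 5 of the 6 animals (adjusted p 0.102 to 0.17 without knockout mouse 1 or 3 or control mouse 1, 2 or 3). Knockout mouse 3 was the highest for Slc7a5, at 3.30, 3.30 and 9.32. Asns, asparagine synthetase, had overlapping groups at 29.7, 47.3 and 37.5 and 27.8, 31.8 and 31.7 and did not pass (0.30 ± 0.21, adjusted p = 0.398, limma). In the mitochondrial folate cycle Mthfd2 stood at 10.2, 14.4 and 19.3 against 0.989, 1.39 and 1.63, a rise of 2.71 ± 0.26 (adjusted p = 9.79e-05, limma). With Aldh1l2 and Psat1 it was 1 of 3 members to rise among 13 genes of serine and one-carbon metabolism, whose median was 0.13. Psat1 (adjusted p 0.0547 to 0.07 without knockout mouse 3 or control mouse 2 or 3) and Aldh1l2 (adjusted p = 0.0523 without control mouse 2) lost their calls in some fits, so that only 1 member rose without knockout mouse 3 or control mouse 2. Among 20 cytosolic tRNA synthetases Wars, Eprs and Aars rose and none fell. None of the 20 passed without knockout mouse 3, and 1 passed without control mouse 2.

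Hormones that mitochondrial stress releases were variable. Gdf15, a circulating peptide that acts on the hindbrain, was at 45.5, 21.8 and 182 in knockouts and 0.325, 11.7 and 3.35 in controls. Knockout mouse 3 was the highest animal and control mouse 2 the highest control. Its rise of 3.79 ± 0.88 did not pass in 2 fits (adjusted p 0.057 to 0.0635 without knockout mouse 3 or control mouse 1). Fgf21 was at 1.04, 1.02 and 2.87 in knockouts and at 0, 0.18 and 0 in controls, so that 2 controls are listed at 0, and the change of 1.25 ± 0.54 did not pass (adjusted p = 0.145, limma). All 3 knockouts were above all 3 controls for both genes, which the rule for the largest rises required of Gdf15.

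ATF4 binds DNA with a C/EBP partner at a composite element, searched here as TGATGNAA on both strands in the 250 bases before each gene's start. RefSeq promoters (mouse build GRCm38.p6) were at hand for 9733 of the 13079 genes, and 2.39% of them held the element. The share was 3.02% among genes that rose, 2.76% among genes that fell and 2.31% among genes that did not pass. Of the stress response factors 3 of 16 with a promoter held it, and of the ATF4 amino acid targets 3 of 10. Of these genes 3 rose, Atf3, Nupr1 and Pycr1 (Nupr1, 0.54 ± 0.12, is outside the rule for named genes and was chosen after its values were seen), and their stretches are printed to show the match, in lower case with the element in capitals, 5′ to 3′ on the strand of the gene, beside that of Fgf21, which did not pass. Atf3 lies at chr1:191183391-191183488 on the minus strand. Nupr1 lies at chr7:126625528-126625625 on the minus strand. Pycr1 lies at chr11:120643799-120643896 on the minus strand. Fgf21 lies at chr7:45615577-45615674 on the minus strand.
Atf3: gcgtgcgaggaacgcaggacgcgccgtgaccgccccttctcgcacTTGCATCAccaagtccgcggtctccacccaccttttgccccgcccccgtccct
Nupr1: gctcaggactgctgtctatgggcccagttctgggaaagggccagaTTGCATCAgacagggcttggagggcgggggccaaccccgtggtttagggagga
Pycr1: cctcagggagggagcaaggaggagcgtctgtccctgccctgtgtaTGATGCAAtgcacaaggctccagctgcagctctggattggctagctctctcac
Fgf21: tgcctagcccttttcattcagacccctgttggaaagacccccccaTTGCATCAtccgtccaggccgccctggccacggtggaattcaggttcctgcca
In 3 of these the capitals read TTGCATCA and in Pycr1 TGATGCAA, the same element on the opposite strand. Trib3, Mthfd2 and Aldh18a1 had no match within this window. A match is a description of the letters and not evidence of binding.

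Nuclear genes of the respiratory chain fell in every complex. In complex IV, cytochrome c oxidase, 12 of 14 tested subunits fell and none rose (median -0.81), and in complex I 31 of 36 fell and none rose (median -0.61). Complex III with cytochrome c had 9 of 10 lower (median -0.62), complex II 3 of 4 (median -0.65) and ATP synthase 9 of 15 (median -0.51). Cox8b, a subunit form of brown fat and muscle, was at 1104, 1345 and 1334 in knockouts against 2704, 3433 and 3221 in controls, a fall of 1.30 ± 0.19. Cox7a1, the other heart and muscle form, fell by 0.93 ± 0.18, and Cox6b1 was at 697, 733 and 639.5 against 1334, 1643 and 1593. In each, every knockout was below every control. Ndufa4, now placed in complex IV, was at 604, 634 and 528 against 1284, 1381 and 1351 (fall of 1.19 ± 0.13, adjusted p = 0.000229, limma). The steepest falls in complex I were Ndufa1 (-1.13 ± 0.17), Ndufa3 (-1.11 ± 0.13) and Ndufb3 (-1.01 ± 0.14), all small accessory subunits of its membrane arm. Uqcrh led complex III at 217, 181 and 203 against 402, 484 and 436, and Atp5k led ATP synthase at 217, 206 and 200.3 against 442, 581 and 466. By contrast the catalytic ATP synthase subunits Atp5a1 and Atp5b did not pass (-0.51 ± 0.16 and -0.49 ± 0.18). Sdha, the flavoprotein of complex II, was at 401, 622 and 479 against 653, 704 and 708 and did not pass (adjusted p = 0.256, limma). Cox6a2, the muscle form of a complex IV subunit, overlapped widely at 286, 64.1 and 233 and 311, 118 and 0.437, with control mouse 3 lowest, as it was for the muscle markers. Complex I counts were 18 without knockout mouse 1, 19 without knockout mouse 3 and 18 without control mouse 2. Those of complex III were 3, 4 and 3 in the same order and 5 without control mouse 3. Counts of falls also depended on the scaling: complex I had 14 in unscaled FPKM, 17 with quantile normalization and 21 with equal nuclear totals, complex III 3, 3 and 5, and complex IV 9, 5 and 11, with medians below 0 for every complex in each.

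Genes that build the chain moved less. Of 42 assembly factors 10 fell and none rose (median -0.32), led by Pet100 at 12.2, 10.2 and 12.4 against 22.4, 28.1 and 24.1 and Cox14 at 149, 141 and 139 against 203, 256 and 254, both needed for complex IV. Of 76 mitochondrial ribosomal protein genes 30 fell and none rose (median -0.31), among them Mrpl34 (-0.84 ± 0.17), Mrpl18 (-0.82 ± 0.13) and Mrps21 (-0.81 ± 0.14). Groups did not overlap in 49 of the 76, against 36.8% of all genes tested. In unscaled FPKM these medians were -0.04 and -0.02, with 2 assembly factors and 7 ribosomal proteins lower and 3 and 2 higher. Without knockout mouse 1 or control mouse 2 the ribosomal count was 13, and 19 or 20 without knockout mouse 3, control mouse 1 or control mouse 3. With 1 of these 5 animals left out 3 to 6 assembly factors fell. Of 38 factors for mitochondrial transcription and RNA handling 8 fell, Lrpprc included. Slirp, the partner that LRPPRC stabilizes, was at 2.87, 2.03 and 1.90 against 3.51, 4.47 and 3.60, a fall of 0.58 ± 0.15 that did not pass in 3 fits (adjusted p 0.0506 to 0.096 without knockout mouse 2 or 3 or control mouse 2). Hsd17b10, a dehydrogenase that is also a part of mitochondrial RNase P, was at 121, 138 and 133 against 219, 246 and 248. That list had 3 or 4 falls without knockout mouse 1 or 3 or any 1 control, and its median of -0.20 was 0.08 in unscaled FPKM. Mitochondrial chaperones and proteases showed no common direction, since 3 rose and 1 fell of 18. One of the 3 was Atf5, a transcription factor also counted among the stress response factors above. Htra2 rose by 0.51 ± 0.12 and did not pass in 2 fits that left out 1 animal (adjusted p 0.0511 to 0.0655, limma). Lonp1, the matrix protease gene, was at 156, 195 and 329 against 102, 113 and 107, and Grpel1 fell by 0.60 ± 0.16. Lonp1 and Grpel1 lost their calls in most fits that left out 1 animal (Lonp1 adjusted p 0.0556 to 0.188 without knockout mouse 2 or 3 or control mouse 1, 2 or 3, Grpel1 adjusted p 0.0522 to 0.13 without knockout mouse 1 or control mouse 1, 2 or 3). Hspd1, the matrix chaperonin, had overlapping groups at 141, 176 and 199 and 181, 193 and 185.

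The pathways that feed the chain fell as well. Among 22 genes of fatty acid oxidation 12 fell (median -0.70). The groups did not overlap in 21 of the 22, against 36.8% of all genes tested. Acaa2, the mitochondrial thiolase, was at 886, 1335 and 840.0 against 1699, 2103 and 1830.0. Etfb, which hands electrons from acyl-CoA dehydrogenases to the chain, was at 1123, 1561 and 992 against 2108, 2443 and 2181. Knockout mouse 2 was the highest knockout for both genes and still below every control. Acot2, a mitochondrial acyl-CoA thioesterase, went the other way, at 93.8, 134 and 114 against 33.98, 40.6 and 36.2 (1.59 ± 0.45), though it passed in none of the fits that left out 1 animal (adjusted p 0.0683 to 0.0947 without knockout mouse 1, 2 or 3 or control mouse 1, 2 or 3). There were 6 or 7 falls without knockout mouse 1 or 3 or control mouse 2 or 3. Unscaled FPKM and quantile normalization each gave 4 falls (medians -0.40 and -0.47). In the citric acid cycle 6 of 22 genes fell (median -0.54), with Fh1, fumarase, at 106, 137 and 120.4 against 201, 241 and 217 and Suclg1 at 155, 257 and 177 against 302, 373 and 330.4. That count was 2 without knockout mouse 1, knockout mouse 3, control mouse 2 or control mouse 3 and 4 without control mouse 1, and 9 without knockout mouse 2, and 2 in unscaled FPKM or with quantile normalization. Breakdown of branched-chain amino acids lost 7 of 21 genes (median -0.48). It was down to 2 without knockout mouse 1 or control mouse 2 and to 3 without knockout mouse 3, control mouse 1 or control mouse 3, and 1 in unscaled FPKM. In coenzyme Q synthesis Coq6, Coq9 and Coq10a fell and Coq8b rose, of 13 tested. Coq9 (adjusted p = 0.0501 without knockout mouse 1) and Coq8b (adjusted p 0.0705 to 0.0827 without knockout mouse 3 or control mouse 1) depended on single animals.

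Of 23 thermogenic genes 6 fell and none rose (median -0.41). Ucp1, the uncoupling protein, was at 269, 361 and 319.7 in knockouts against 565, 1073 and 779 in controls, and the groups did not overlap. Its fall of 1.31 ± 0.36 (adjusted p = 0.0302, limma) did not pass in 4 fits (adjusted p 0.0704 to 0.124 without knockout mouse 1 or 3 or control mouse 2 or 3). Cidea, at lipid droplets, was at 676, 1190.0 and 696 against 1224, 1629.6 and 1436 and depended on the same 4 animals (adjusted p 0.0599 to 0.103 without knockout mouse 1 or 3 or control mouse 2 or 3). Ucp1 also missed the threshold with no filter on low values (adjusted p = 0.0641, limma) and with quantile normalization (0.134). The regulators Ppargc1a (0.20 ± 0.30), Prdm16 (-0.53 ± 0.26), Ebf2 (0.18 ± 0.26) and Dio2 (0.98 ± 0.51) did not pass. Dio2, the deiodinase that makes active thyroid hormone, was uneven among controls at 0.94, 8.67 and 3.66. The list count was 3 or 4 without knockout mouse 1 or 3 or control mouse 2 or 3, and 2 with quantile normalization. Of 23 adrenergic and cAMP genes Adcy6, an adenylyl cyclase, fell from 59.7, 61.9 and 61.1 to 27.1, 36.7 and 27.4, and Prkaca, the catalytic subunit of protein kinase A, by 0.64 ± 0.20. Calls of 2 in 23 are near the background share, and Prkaca lost its call in most fits (adjusted p 0.0889 to 0.176 without knockout mouse 1 or 3 or control mouse 1, 2 or 3). The receptor gene Adrb3 had overlapping groups at 122, 64.1 and 80.4 and 135, 102 and 109.6.

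Adipocyte secretory genes and lipid handling fell in part. Adiponectin (Adipoq) was at 453, 386 and 398 against 1032, 978 and 907, with little spread in either group and a fall of 1.24 ± 0.17 (adjusted p = 0.000877, limma). Cfd, adipsin, was at 1940.1, 1048 and 2281 against 4557, 3777 and 3728 and depended on single animals (adjusted p 0.0507 to 0.0844 without knockout mouse 1 or 2 or control mouse 1, 2 or 3). Angptl2 and Retsat fell by 1.03 ± 0.18 and 1.09 ± 0.21, and in all 5 of 17 adipocyte genes fell and none rose (median -0.35). Without knockout mouse 1 or control mouse 1 or 2 that count was 3. The adipocyte regulators Pparg (-0.35 ± 0.16) and Cebpa (0.14 ± 0.23) did not pass. Of 22 genes of lipogenesis and triglyceride synthesis 5 fell, among them Gpat4, Thrsp and Dgat2, and none rose. The list as a whole had no common direction, with a median of 0.07 and 12 members above 0. In unscaled FPKM its median was 0.37, with 4 members higher and 4 lower. Dgat2, the last step, was at 408, 715 and 584 against 1080.5, 1277 and 1486, and Gpat4, an early step, at 51.6, 59.98 and 40.2 against 111, 128 and 117, whereas Fasn was at 471, 427 and 457 against 387, 423 and 193 and did not pass (adjusted p = 0.479, limma). That list had 3 falls without knockout mouse 1 or 3. Cidec, which lets lipid droplets fuse, was at 349, 268 and 287 against 646, 746 and 695, a fall of 1.21 ± 0.16. The lipase gene Pnpla2, which encodes ATGL, fell by 0.69 ± 0.15. Quantile normalization gave 0.02 for Pnpla2, so its direction rests on the scaling. Hilpda, an inhibitor of that lipase, was at 19.5, 9.58 and 13.9 against 6.87, 7.06 and 7.74 and rose. Falls in this droplet list numbered 5 of 18, 3 without knockout mouse 1 or 3 or control mouse 3, and 2 without control mouse 2, and 1 in unscaled FPKM. In fatty acid uptake, where 5 of 18 fell, Slc27a2 was at 19.7, 33.6 and 11.2 against 61.3, 59.2 and 61.5, while Lpl at 756, 673 and 644 against 651, 675 and 638 and Cd36 at 380.0, 382 and 339.9 against 322, 357 and 362 overlapped. Fabp4 fell by 0.85 ± 0.18 here and had a change of 1.22 in the opposite direction after quantile normalization. That list had 3 falls with any 1 animal left out other than control mouse 1, and its median of -0.41 was 0.02 with quantile normalization. Glucose genes were split, with Slc2a1 and Pfkp higher and Gpd1, Ldhb and Pgk1 lower among 20, and none of the 20 passed without knockout mouse 1 or control mouse 2.

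Macrophage genes rose. Of 19 tested macrophage identity genes 14 rose and none fell (median 1.70), and of 20 genes of lipid-associated macrophages 12 rose and none fell (median 1.02). Cd68, a lysosomal marker of the lineage, was at 156, 46.8 and 66.4 in knockouts against 7.25, 10.1 and 23.2 in controls, a rise of 2.61 ± 0.48 (adjusted p = 0.00448, limma). Adgre1, the F4/80 antigen, was at 26.9, 10.4 and 15.7 against 2.03, 2.02 and 6.42, and the complement gene C1qb at 255, 102 and 195 against 22.7, 30.3 and 66.8. In all 3 genes knockout mouse 1 was highest, control mouse 3 was the highest control, and the groups did not overlap. The summed level of the 20 identity genes was 2406, 833 and 1337 in knockouts against 182, 235 and 567 in controls. Within the lipid-associated list Capg (2.45 ± 0.49) and Spp1 (2.30 ± 0.39) followed the genes named above. Not every macrophage gene rose: the resident macrophage receptor Cd163 was at 1.01, 0.903 and 1.53 against 1.19, 1.56 and 1.73 and did not pass. Apoe, which both adipocytes and macrophages express, was lower in each knockout, at 2201, 1645 and 1848 against 3102, 2968 and 2705, without passing (-0.63 ± 0.34, adjusted p = 0.247, limma). The 2 counts lay between 11 and 15 and between 8 and 13 with 1 animal left out, the lowest of the second being without control mouse 1. Fitted on the 6 animals alone, 9 and 6 members passed.

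Genes for the signals between such cells rose too. Of 22 chemokine and cytokine genes tested 11 rose and none fell (median 0.72). Ccl2, which recruits monocytes, was at 12.8, 6.34 and 11.2 against 1.73, 3.01 and 4.36, and Ccl9 and Ccl6 rose by 2.45 ± 0.44 and 2.47 ± 0.49. That count was 3 without knockout mouse 1, 6 without knockout mouse 3, 5 without control mouse 1 and 6 without control mouse 2. Antigen presentation on MHC class II rested on single animals: 6 of 9 genes rose with a median of 1.27, but none passed without knockout mouse 1, 3 without knockout mouse 3 and 1 without control mouse 1 or 2. Cd74, the invariant chain, was at 855, 350.1 and 533 against 124, 155 and 364, and control mouse 3 overlapped knockout mouse 2 (adjusted p 0.0974 to 0.16 without knockout mouse 1 or 3 or control mouse 1 or 2). None of 12 T and NK cell markers passed (median 0.17), with Cd3e at 2.76, 0.751 and 5.94 against 0.776, 1.52 and 3.81, and none of 8 neutrophil and mast cell markers (median 0.53). Of 8 B and plasma cell markers 2 rose (median 0.48), Cd22 at 2.32, 0.955 and 3.70 against 0.323, 0.352 and 0.811 (adjusted p 0.0512 to 0.0536 without control mouse 1 or 2) and Sdc1 at 20.1, 6.05 and 7.17 against 3.09, 3.44 and 4.19 (adjusted p 0.0622 to 0.0664 without control mouse 1 or 2). The groups did not overlap in either, while the summed level of that list did, at 518, 98.6 and 168 in knockouts and 178, 158 and 542 in controls. Lysosomal genes were higher in 13 of 33 (median 0.47), with Gusb at 46.1, 21.6 and 29.3 against 12.9, 15.6 and 18.3 (adjusted p = 0.0559 without control mouse 1). That count was 4 without knockout mouse 1, 7 without knockout mouse 3, 2 without control mouse 1 and 3 without control mouse 2. Fitted on the 6 animals alone, 6 chemokine and cytokine genes, no MHC class II gene and 3 lysosomal genes passed.

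**Figure D3:**
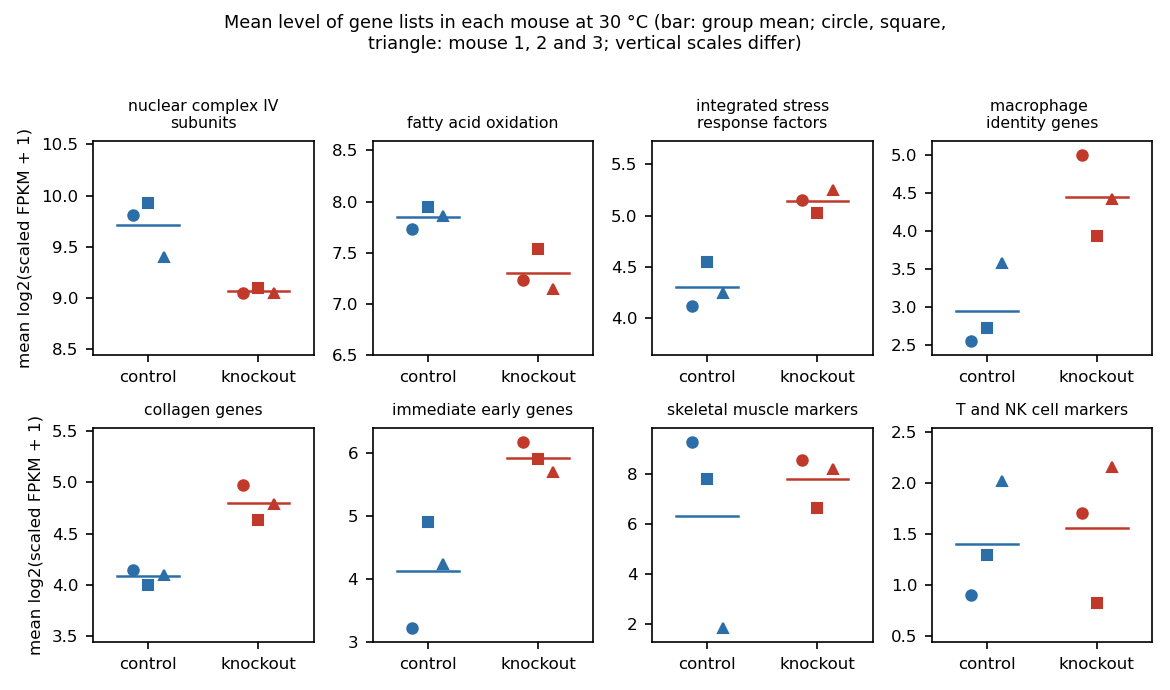
Mean of log2(scaled FPKM + 1) over the tested members of 8 gene lists in each mouse at 30 °C, controls in blue and knockouts in red, with mice 1, 2 and 3 as circle, square and triangle and a bar at each group mean; vertical scales differ between panels. Groups are apart for the first 6 lists and overlap for skeletal muscle, where control mouse 3 is the lowest, and for T and NK cell markers.

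Collagen and other matrix genes rose. Of 19 collagen genes tested 12 rose and none fell (median 0.77), and of 31 other genes of matrix and fibrosis 15 rose and none fell (median 0.84). The largest change of the second list was that of Mmp12, named above among the macrophage genes. Col1a1, the main fibrillar collagen, was at 282, 115 and 158 in knockouts against 50.9, 46.5 and 52.9 in controls, a rise of 1.77 ± 0.30 (adjusted p = 0.00327, limma). The 3 controls were within a few units of each other, and knockout mouse 1 was again the highest. Col18a1, of basement membranes, rose by 1.61 ± 0.25 and Col1a2 by 1.28 ± 0.27, while the basement membrane genes Col4a1 (0.25 ± 0.16) and Col4a2 (0.14 ± 0.16) did not pass. Thbs1, thrombospondin, was at 19.8, 9.97 and 18.2 against 1.64, 3.32 and 1.62 (2.40 ± 0.27, adjusted p = 0.000319, limma). Timp1, an inhibitor of matrix proteases, was at 18.2, 5.67 and 7.30 against 0.821, 1.46 and 4.89 and did not pass in 3 fits (adjusted p 0.068 to 0.0783 without knockout mouse 1 or control mouse 1 or 2). Ccn1, a secreted early-response protein, was at 242, 293 and 254 against 20.6, 136 and 70.5. Collagen calls numbered 8 without knockout mouse 1 and 7 without control mouse 2. Other matrix calls numbered 8, 9, 8 and 8 without knockout mouse 1, knockout mouse 3, control mouse 1 and control mouse 2, and 9 on the 6 animals alone. Of 12 fibroblast markers 1 rose, Pdgfra at 6.76, 5.55 and 4.82 against 3.39, 2.57 and 3.51 (adjusted p 0.0507 to 0.133 without knockout mouse 1 or 2 or control mouse 1 or 2). Their median was 0.40, and their summed level was 290, 166 and 248 in knockouts against 197, 188 and 191 in controls. No smooth muscle or pericyte marker passed of 11 tested. Of 16 endothelial markers 1 rose and 1 fell (median -0.22, and 0.07 in unscaled FPKM), which is near the background share. The one that rose was Cldn5, a tight junction gene, at 604, 504 and 534 against 98.02, 108 and 105, with each group tight and a change of 2.39 ± 0.34 (adjusted p = 0.00119, limma). Cdh5 and Pecam1, which mark the same cells, did not pass (-0.28 ± 0.27 and -0.15 ± 0.24).

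Genes of cell stress and growth arrest rose in part. Of 18 p53 and Gadd45 genes 6 rose and none fell (median 0.55). Gadd45a was at 47.5, 74.3 and 67.9 against 6.43, 3.43 and 4.14, a change of 3.51 ± 0.47 (adjusted p = 0.000877, limma), and Cdkn1a, which encodes the cell cycle inhibitor p21, at 137, 102 and 117 against 20.2, 48.003 and 24.1. Every knockout was above every control for both genes, which the rule for the largest rises required of Gadd45a. The proliferation list had 7 of 23 genes higher (median 0.55), Cdkn1a among them, with Pcna at 53.7, 39.2 and 41.4 against 24.7, 29.02 and 27.3, but the count was 2 or 3 without knockout mouse 1 or 3 or control mouse 1 or 2 and 13 without knockout mouse 2, and Mki67 at 1.93, 0.955 and 1.03 against 0.492, 0.577 and 1.09 did not pass. Counts for the p53 list were 4 without knockout mouse 1 or control mouse 2 and 3 without knockout mouse 3 or control mouse 1. Nrf2 targets of antioxidant defence rose in 9 of 25 and fell in 1 (median 0.47). Cbr3, a carbonyl reductase, was at 33.1, 56.8 and 78.1 against 6.05, 6.83 and 6.84 (2.83 ± 0.37, adjusted p = 0.000649, limma). Srxn1, sulfiredoxin, was at 46.8, 31.7 and 39.1 against 13.1, 16.7 and 16.1 and Gclm, of glutathione synthesis, at 11.8, 8.17 and 9.04 against 4.25, 4.73 and 4.47, with no overlap in either. Hmox1, heme oxygenase, rose by 1.70 ± 0.41 and did not pass in 3 fits (adjusted p 0.0613 to 0.0702 without knockout mouse 1 or control mouse 1 or 2). Nqo1 overlapped at 4.12, 1.67 and 2.84 and 2.37, 1.94 and 1.67. Without knockout mouse 1 the Nrf2 list had 5 rises and without control mouse 1 it had 6. Of 21 chaperone and sensor genes of the endoplasmic reticulum 4 rose and none fell (median 0.31), with Sdf2l1 at 28.7, 14.3 and 26.3 against 7.04, 5.65 and 8.31, while the chaperone Hspa5 was at 142, 127 and 171 against 95.2, 119 and 116 and did not pass (adjusted p = 0.129, limma). That count was 2 without knockout mouse 3 or control mouse 3.

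Immediate early genes, which respond to stimulation within minutes and also to handling and dissection, had the highest median of the plotted lists, 1.79, with 17 of 23 higher and none lower. Fosl2 was at 49.2, 39.2 and 41.3 against 5.55, 10.1 and 7.19, a rise of 2.39 ± 0.28 (adjusted p = 0.000319, limma), and Klf2 at 476, 217 and 328 against 29.7, 87.4 and 37.5. Fos stood at 114, 182 and 62.5 in knockouts but at 3.04, 39.1 and 17.8 in controls, where control mouse 2 was many times above control mouse 1. The summed level of the list was 3137, 2991 and 2477 in knockouts and 365, 1599 and 953 in controls. Egr1 overlapped and did not pass, at 157, 336 and 126 against 9.23, 127 and 53.3. Control mouse 2 was also the highest control for Gdf15, Atf3 and Ppp1r15a. The count was 10 without knockout mouse 1, 11 without knockout mouse 3 or control mouse 1, and 8 on the 6 animals alone. How and in what order the animals were killed is not given in the sources used here, and its part in these values was not tested.

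The clock list split into genes that peak at opposite times of day. Of 19 tested 8 fell and 3 rose. Those that rose were Arntl, Npas2 and Nfil3. Arntl, which encodes BMAL1, was at 4.0, 4.53 and 4.06 against 0.979, 0.597 and 0.694. Npas2 was at 1.62, 1.21 and 0.916 against 0.316, 0.0924 and 0.122, and Nfil3 at 21.3, 11.6 and 22.99 against 4.54, 6.29 and 4.97. Those that fell with the largest changes were Hlf (-1.60 ± 0.23), Dbp (-1.55 ± 0.29), Tef (-1.38 ± 0.17), Per3 (-1.30 ± 0.31, adjusted p 0.0566 to 0.0693 without knockout mouse 1 or 3 or control mouse 1), Per2 (-1.09 ± 0.24) and Ciart (-0.998 ± 0.21). Dbp, an output gene of the clock, was at 47.4, 32.4 and 35.3 against 121, 114 and 104 and Tef at 24.7, 29.7 and 26.01 against 74.1, 70.02 and 69.5. In Arntl, Dbp and Tef the animals of a group were close together and the groups were apart. Clock (0.45 ± 0.26) and Cry1 (0.22 ± 0.19) did not pass. Between 6 and 8 members fell and 2 or 3 rose with any 1 animal left out. The hour of tissue collection is not given in the sources used here and its part in these values was not tested.

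**Figure D4:**
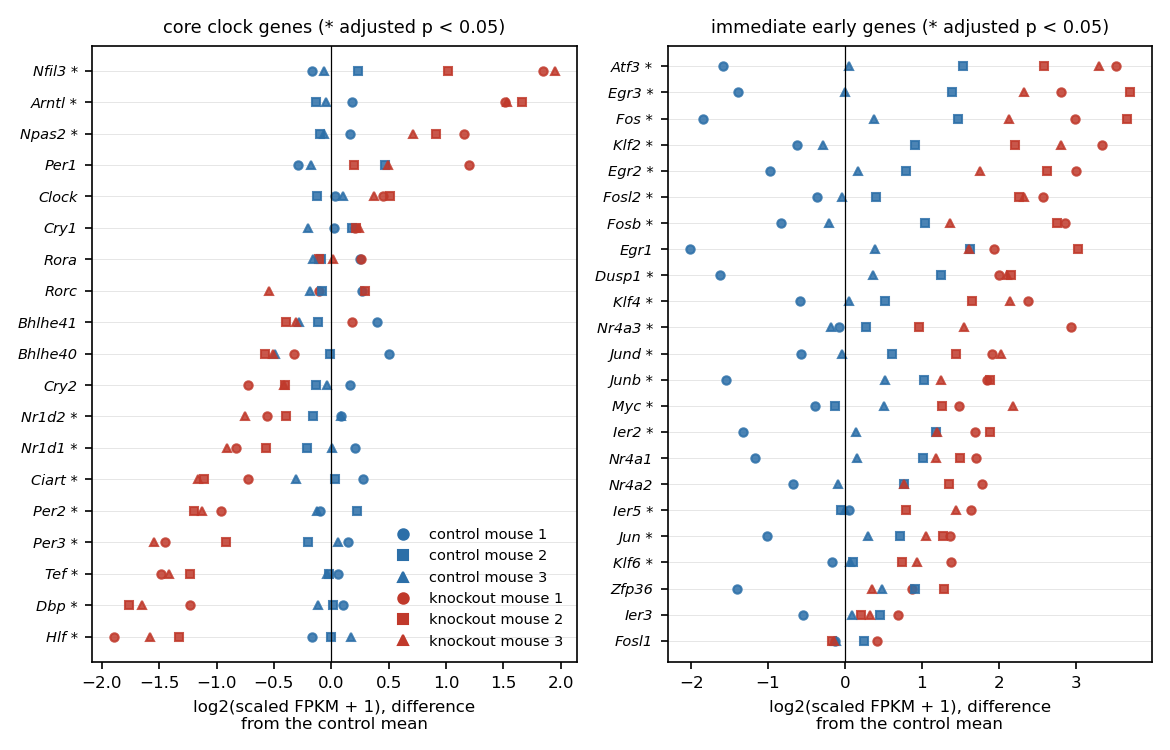
Difference of log2(scaled FPKM + 1) from the control mean for each mouse at 30 °C, for 19 core clock genes (left) and 23 immediate early genes (right), with an asterisk at genes that passed; controls are blue, knockouts red, and circle, square and triangle are mice 1, 2 and 3. Clock genes such as Hlf, Dbp, Tef and Arntl form 2 tight groups, whereas controls spread widely for early genes such as Egr1 and Fos.

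The effect at 30 °C was set against the effect in the separate animals at 22 °C. At 22 °C 258 genes passed (1.97%), and 176 genes passed at both temperatures in the same direction, 9.54% of the calls at 30 °C and 68.2% of those at 22 °C; none passed in opposite directions. Of the 1845 genes called at 30 °C, 1615 (87.5%) had a change of the same sign at 22 °C. The same share over all 13079 genes was not computed, so this value has no background to be read against. The test of the difference between the 2 effects called 0 of 13079 genes (0%) with limma, although 1694 had an unadjusted p under 0.05 and the smallest adjusted p was 0.052. limma-voom on reads recovered from the FPKM steps also called 0. With sample weights 213 genes passed, and without knockout mouse 2, the animal given the lowest weight of the 6, 135 passed, against 1 to 4 with another animal left out. Genes differed in how far the 2 effects lay apart. Changes were large at both temperatures for Trib3 (3.46 ± 0.43 at 30 °C and 3.97 at 22 °C), Gadd45a (3.51 ± 0.47 and 3.26), Cbr3 (2.83 ± 0.37 and 2.74) and Mthfd2 (2.71 ± 0.26 and 3.32). Adjusted p for the difference was 0.488 or more in these 4 genes (limma), which does not show that the 2 effects were equal. Other stress genes had a smaller change at 22 °C, such as Cdkn1a (2.002 ± 0.40 and 0.41, adjusted p of the difference 0.247, limma) and Gclm (0.95 ± 0.15 and 0.24, 0.205), or a larger one, such as Ddit3 (1.22 ± 0.30 and 2.17, 0.338). Medians were nearer 0 at 22 °C for some lists: macrophage identity genes 0.54 with none passing, collagen genes 0.26 with none, immediate early genes 0.04 with none, complex I subunits -0.33 with 5 lower and fatty acid oxidation genes -0.10 with none lower. They were not for others: mitochondrially encoded messages had -3.49 with all 13 lower, integrated stress response factors 0.58 with 7 higher and ATF4 amino acid targets 0.58 with 4 higher. These differences between lists were not tested. For Clstn3, Thbs1, Krt8 and Epcam the adjusted p of the difference was 0.052, just above the threshold, and for Fos it was 0.213, for Gpnmb 0.235, for Col1a1 0.224 and for Ucp1 0.287. Passing at 30 °C and not at 22 °C is therefore not shown to be a difference for any single gene. The 2 sets are separate animals, and the labels do not say whether they were housed or collected at the same time.

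**Figure D5:**
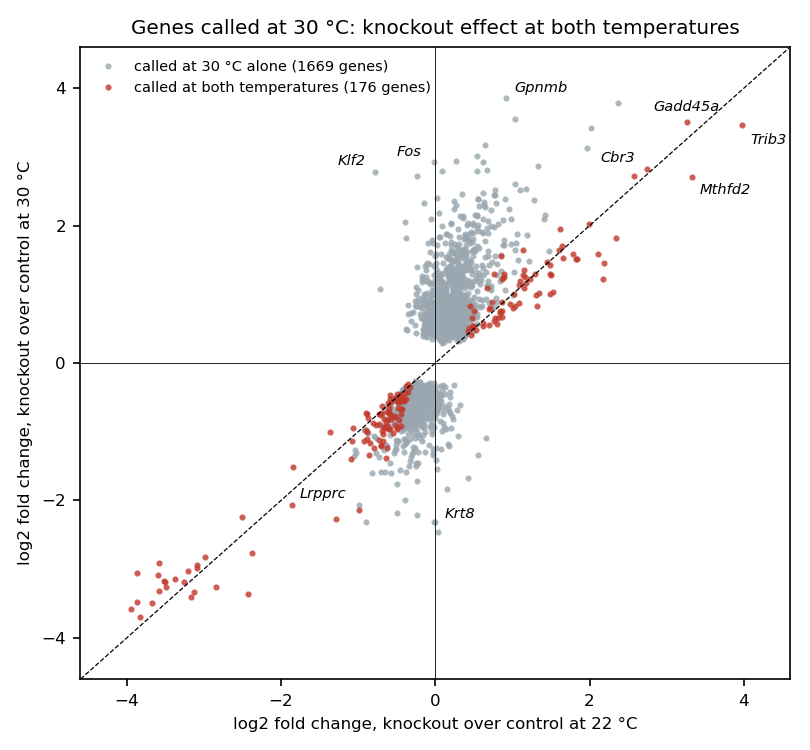
Log2 fold change, knockout over control, at 22 °C (horizontal) and at 30 °C (vertical) for the 1845 genes called at 30 °C, 1 point per gene; red points are the 176 genes called at both temperatures and grey points the other 1669, and the dashed line marks equal changes. Trib3, Gadd45a, Cbr3 and Mthfd2 lie near the line, while Fos and Krt8 lie on the vertical axis; the points were chosen on their 30 °C values.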

How the data were processed

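RNA-seq values of brown adipose tissue came as 1 table of deposited FPKM for 14 mice, which the authors had corrected for gene length and depth but, as the column totals show, not scaled between libraries further. The build is mm9 per the submitters' processing notes. The aligner, counter, annotation version and strand setting are not given in the sources used here. Of 35275 genes 34490 had a symbol. Steps between low values gave depths of 15840000 to 21280000 fragments, with 90.8% to 92.3% of low values within 0.05 of a whole read.

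Libraries were divided by their median ratio over 10049 nuclear genes (0.928 to 0.947 in controls and 1.11 to 1.20 in knockouts at 30 °C). A gene was kept where 3 or more of the 14 mice had a deposited FPKM of 1 or more. limma 3.58.1 in R 4.3.3 was fitted to log2(scaled FPKM + 1) with 1 mean per group over all 14 mice and a mean-variance trend, tested on simulated data first, and p-values were adjusted by Benjamini-Hochberg. The groups were genotype and temperature as labelled. limma-voom on recovered reads and, for the difference between temperatures, fits without single animals were added after the data were seen.

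The 53 gene lists and the genes named were chosen with earlier results of these data known. Genes named were the 15 with the largest change each way (at least 5 FPKM, groups apart), up to 6 called per list and direction, list members said not to pass, and Lrpprc, Slirp, Ucp1, Fgf21, Gdf15 and Atf4. In these lists 7 symbols had no match. Some genes stand in more than 1 list, such as Atf3, Atf5, Sesn2 and Hsd17b10, so the counts of different lists are not independent.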

Additional observations from a re-analysis of the deposited data

How the results depend on the processing

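Calls (1845, of which 1154 higher and 691 lower) depended on the scaling, the samples fitted and single animals. Deposited FPKM without scaling gave 4571 calls, 4280 higher and 291 lower. The same total over nuclear genes gave 2225 higher and 409 lower. The 6 animals at 30 °C alone gave 1223 calls, 563 of them higher, from fewer samples. Sample weights gave 3652 calls, 2274 higher and 1378 lower. A filter at a mean of 5 gave 629 higher from fewer genes. With 1 animal left out, calls ranged from 815 to 2113, 470 to 1317 higher and 345 to 796 lower. Pseudocount 0.1, no filter, quantile normalization, no trend, robust eBayes and voom each kept all 3 counts within 1.5 times. The genes called were not all the same: 1332 of the 1845 were also called with no filter and 1444 with quantile normalization. The others of these settings shared 1601 to 1831. Quantile normalization gave 887 higher and 935 lower. The difference between temperatures had 0 calls, and 9 with no filter, 6 unscaled, 8 after quantile normalization, 10 with equal nuclear totals, 7 without trend, 213 with sample weights and 1 to 135 with 1 animal left out (135 without knockout mouse 2). Under quantile normalization Pnpla2 (0.024) and Fabp4 (1.22) changed sign. The causes of these shifts, other than fewer samples or genes, were not tested. Of 224 named genes that passed, 107 passed under each alternative that tested them, and 91 of these were tested in all 17. Depth limits most the genes near 1 FPKM, where the added 1 also damps the change. No paired analysis was possible because the labels give animal identifiers and no replicate numbers shared between groups.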

Other observations

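Of 56 cytosolic ribosomal protein genes 2 fell and none rose, a share near the background, and their median was -0.12, or 0.17 in unscaled FPKM. Of 6 genes of the creatine cycle 5 had a positive change (median 0.53) and 1 passed. Gatm, which makes the creatine precursor guanidinoacetate, rose from 1.63, 1.29 and 1.61 scaled FPKM in control mice 1, 2 and 3 to 5.57, 3.29 and 3.21 in knockout mice 1, 2 and 3 (log2 change 0.97 ± 0.24, adjusted p = 0.0181, limma). The groups did not overlap, and the call was lost without knockout mouse 1 or control mouse 2. Ckb, the brain-type creatine kinase of the same cycle, stood at 184, 304 and 239 against 142, 211 and 119, overlapped and did not pass (adjusted p = 0.32, limma). Lep, which encodes leptin, stood at 15.7, 19.1 and 29.5 against 34.2, 38.5 and 41.5. Its groups did not overlap and it did not pass (adjusted p = 0.352, limma).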
